A study of Mus musculus with 12 samples.

Results

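The replication-dependent histone genes were examined in mouse resting B (RB) cells after 4 h of stimulation through the Toll-like receptor TLR-2, the costimulatory molecule CD86 or the receptor CD40. Members were all genes whose symbol on the array began with Hist1h, Hist2h, Hist3h or Hist4h, the prefixes of the 4 clusters in which these genes lie. There were 42 such genes, read by 47 probes, of 29411 gene symbols on the array. The clusters held 31, 7, 3 and 1 of them in that order, and by protein class there were 6 genes for H1, 14 for H2A, 9 for H2B, 7 for H3 and 6 for H4.

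Core histones H2A, H2B, H3 and H4 form the protein spool around which DNA is wrapped, and the linker histone H1 binds where the DNA enters and leaves it. A cell needs a full new set each time it copies its genome, so these genes are known for a burst of expression in S phase. Their messages lack introns and end in a conserved stem-loop in place of a poly(A) tail. That stem-loop is bound by SLBP, and the messages are degraded quickly when DNA synthesis stops. Some of the genes can also give a polyadenylated message in cells that do not divide. B cells taken from an unchallenged spleen are mostly quiescent, and few of them are copying DNA.

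The cells came from the spleen of 6-week-old BALB/c mice, female per the labels, and were isolated by negative selection with antibodies that included anti-CD43. There were 6 groups of 2 arrays: unstimulated, Pam2CSK4 (a lipopeptide that binds TLR-2), anti-CD86, anti-CD86+Pam2CSK4, anti-CD40 and anti-CD40+Pam2CSK4. All 12 samples shared the same culture time and medium, and no array of cells treated with an isotype control antibody was analysed here. The study describes its arrays as biological replicates without giving the animals behind each, so the p-values below measure only the spread between these arrays.

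Labelling was primed with oligo(dT), which binds poly(A), and the share of stem-loop messages that such priming captured was not tested. The stem-loop itself was searched in the probes as GGCTCTT, any base, T, any base and AGAGCC, on both strands. It was found whole in 4 of 61307 probes on the array, which is 0.00652%, and all 4 belonged to histone genes. They are shown with up to 7 probe bases on either side, because the loop is what sets this class of message apart; capitals mark the stem-loop.

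Hist1h2ag: caacaaaGGCTCTTTTCAGAGCCacct
Hist1h3a: aaccaaaGGCTCTTTTCAGAGCCaca
Hist1h3g: ctttaaaGGCTCTTCTTAGAGCCaccca
Hist1h3h: tttcaaaGGCTCTTTTCAGAGCCaccca

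The probes of Hist1h2ab and Hist1h2ae held at least 10 bases of the motif at one edge. Between the paired arms GGCTCT and AGAGCC, the loop reads TTTC in 3 of these genes and TCTT in Hist1h3g.

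Coding sequences of the same class are nearly identical, so several probes cannot tell one gene from its neighbours. Of the 47 probes, 12 were listed by the array's own annotation with more than 1 RefSeq transcript, up to 9, and 10 shared an unbroken run of at least 30 bases with the probe of another histone gene. Values of such genes are those of a group of transcripts. The brightest H2A, H2B and H4 probes are shown, since the levels below rest on them; capitals mark the run that all probes of a set share.

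Hist1h2aa: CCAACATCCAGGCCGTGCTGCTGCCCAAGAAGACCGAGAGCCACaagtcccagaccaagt
Hist1h2af: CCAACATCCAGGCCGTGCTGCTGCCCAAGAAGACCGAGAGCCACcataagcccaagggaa
Hist1h2ah: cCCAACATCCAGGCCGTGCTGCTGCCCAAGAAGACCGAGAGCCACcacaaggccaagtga
Hist1h2bk: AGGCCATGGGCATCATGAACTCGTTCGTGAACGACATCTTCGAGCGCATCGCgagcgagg
Hist1h2bm: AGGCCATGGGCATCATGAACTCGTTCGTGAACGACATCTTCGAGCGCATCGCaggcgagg
Hist1h4d: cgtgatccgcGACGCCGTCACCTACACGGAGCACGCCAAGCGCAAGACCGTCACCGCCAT
Hist1h4f: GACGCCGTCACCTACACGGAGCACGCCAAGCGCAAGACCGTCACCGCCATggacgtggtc

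The 3 H2A probes shared 44 bases, the 2 H2B probes 52 and the 2 H4 probes 50, of 60 in each. Hist1h2bk and Hist1h2bm were identical at 58 of 60 positions, and the Hist1h2bk probe was annotated to 9 transcripts.

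Levels are log2 Cy3 signal minus the 75th percentile of the array, so 0 is the 75th percentile of its probes, and each gene is read by its brightest probe. A gene was tested if its probe held no outlier spot and, in 1 group or more, both arrays read it well above background. That left 38 of the 42 genes, 37 of them well above background on all 12 arrays, beside 16751 genes in all. The 4 others were Hist1h2ac and Hist1h2be, on no array above background, Hist1h1t, on 1 array, and Hist1h3f, which had an outlier spot on an unstimulated array and read -1.93 to -1.44 on the other arrays. The probe of Hist2h3c1, an H3 gene, was saturated on all 12 arrays, so it has a lower bound and no fold change. It stays among the 38 genes in the counts and medians below. Saturation also touched Hist1h2aa and Hist1h2af on 1 array each and Hist1h2ah on 2.

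The arrays lay on 2 slides. Slide 1 held 8 arrays: both unstimulated, both anti-CD40+Pam2CSK4 and replicate 1 of every other group; slide 2 held replicate 2 of the 4 remaining groups. Histone signals were lower on slide 2, with a median difference of -0.27 (log2) between replicate 2 and replicate 1 of those groups, lower in 34 of 38 genes, against -0.18 over all genes tested. For the histone genes, each comparison with unstimulated cells is therefore given with slide as a block in the fit too, and on slide 1 alone. The replicate 2 array of anti-CD40 stood apart: 60.6% of its probes were well above background, against 46.6% to 55.9% on the others. All 6 B cell markers were well above background on every array. Their summed signal (log2) ranged from 8.38 to 8.50 in unstimulated cells and from 8.28 to 8.92 in stimulated cells. The 3 NK cell markers summed to 3.19 to 3.21 in unstimulated cells and 2.14 to 2.97 in stimulated cells, and the 5 T cell markers to 3.77 to 3.80 and 3.16 to 3.71. These NK and T cell lists were lower on all 10 stimulated arrays. The 4 myeloid markers summed to 3.41 to 3.42 unstimulated, 3.57 to 3.82 with Pam2CSK4 and 2.64 to 3.56 in the other stimulated groups. The 3 plasma cell markers summed to 7.57 to 7.73 unstimulated, 7.96 to 8.00 with anti-CD40+Pam2CSK4 and 7.42 to 7.78 otherwise. The part of these cells in the histone values was not tested. In bulk RNA, fewer cells in S phase and less histone RNA per cell cannot be told apart.

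In every group of stimulated cells the histone genes lay, as a group, below their level in unstimulated cells. The median difference over the 38 genes was -0.26 (log2) with Pam2CSK4, -0.58 with anti-CD86, -0.48 with anti-CD86+Pam2CSK4, -0.59 with anti-CD40 and -0.24 with anti-CD40+Pam2CSK4. Over all genes tested the same medians were -0.14, -0.15, -0.17, -0.15 and -0.08. The class medians with anti-CD40 were -0.59 for H1, -0.67 for H2A, -0.63 for H2B, -0.48 for H3 and -0.53 for H4. As a level, the median histone signal stood at 83.5%, 67.1%, 71.7%, 66.7% and 85.0% of its unstimulated value in that order. These values mix slide with treatment. Replicate 2 of each stimulated group but anti-CD40+Pam2CSK4 lay on slide 2, where histone signals were lower. By the replicate 1 arrays, on slide 1, the medians were -0.12, -0.45, -0.34 and -0.39 with Pam2CSK4, anti-CD86, anti-CD86+Pam2CSK4 and anti-CD40. All 5 comparisons use the same 2 unstimulated arrays, so they are not independent of each other.

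**Figure D1:**
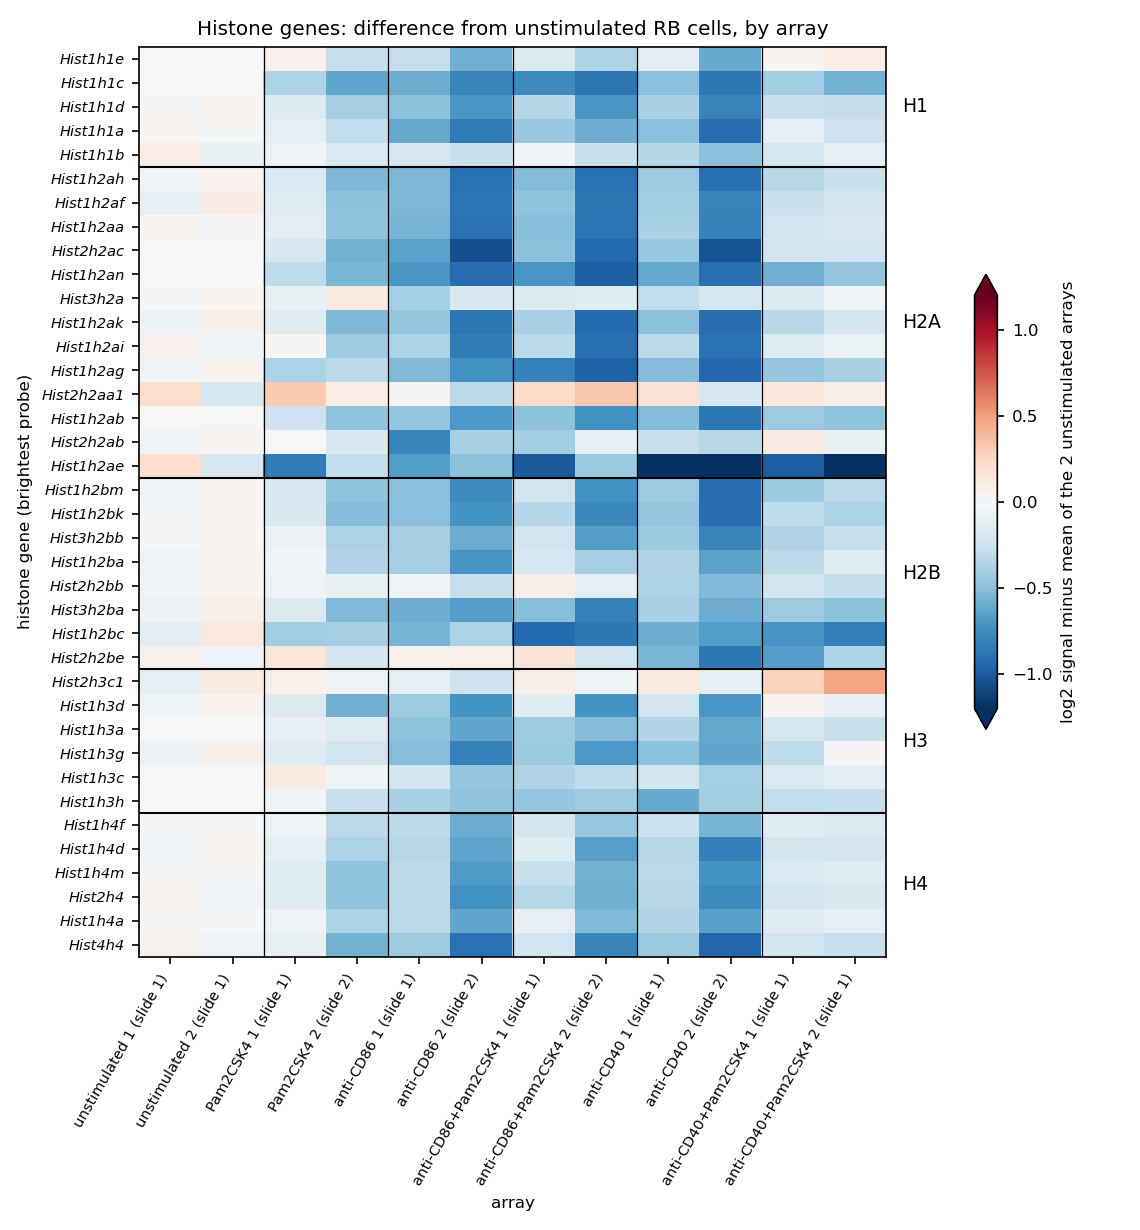
Difference in log2 signal between each array (columns, with the slide in brackets) and the mean of the 2 unstimulated arrays, for the 38 histone genes tested (rows, grouped by class). Blue is lower; all 38 genes are below 0 on the replicate 2 array of anti-CD40, and Hist2h2be is blue in both anti-CD40 groups but near 0 in both anti-CD86 groups.

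The direction was the same on single arrays. Against the mean of the unstimulated arrays, the median histone difference (log2) was -0.12 and -0.38 on the Pam2CSK4 arrays, replicate 1 first. It was -0.45 and -0.69 with anti-CD86, -0.34 and -0.65 with anti-CD86+Pam2CSK4, -0.39 and -0.78 with anti-CD40, and -0.24 and -0.23 with anti-CD40+Pam2CSK4. The lower value in each of the first 4 pairs came from slide 2, and the last pair came wholly from slide 1. Both arrays of a group read below both unstimulated arrays for 28 genes with Pam2CSK4, 35 with anti-CD86, 33 with anti-CD86+Pam2CSK4, 36 with anti-CD40 and 32 with anti-CD40+Pam2CSK4. Among all genes tested, 46.8%, 48.2%, 48.1%, 45.9% and 46.4% did so. The unstimulated arrays lay close together, with a median absolute difference between them of 0.063 over the histone genes, against 0.25 to 0.36 in the groups split between slides.

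**Figure D2:**
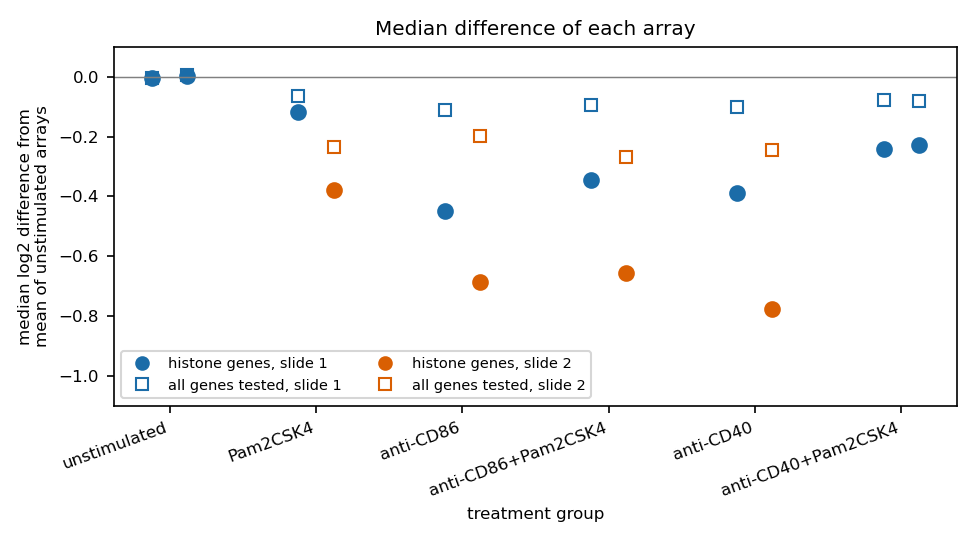
Median log2 difference of each array from the mean of the unstimulated arrays, for the 38 histone genes (filled circles) and all 16751 genes tested (open squares), coloured by slide. Histone medians lie below the all-gene median on every stimulated array, by the least on the first Pam2CSK4 array (-0.12 against -0.06).

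Tested across all 6 groups (limma's moderated F test, Benjamini-Hochberg adjustment over all probes), 5 of the 38 genes differed at an adjusted p under 0.05, beside 20.8% of all genes. With slide as a block 33 did, beside 64.9%, and on slide 1 alone 10 did, beside 35.7%. The 33 include Hist2h3c1, whose probe was saturated on all arrays.

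In none of the 5 comparisons did a histone gene pass as higher than in unstimulated cells, beside 0.107%, 0.454%, 1.78%, 4.66% and 7.36% of all genes. With slide as a block none did with Pam2CSK4, anti-CD86, anti-CD86+Pam2CSK4 or anti-CD40, beside 4.08%, 10.4%, 10.6% and 12.9%.

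Pam2CSK4 alone gave no call. No histone gene passed the test in either direction (limma; 3 were lower and none higher at an unadjusted p under 0.05), beside 0.0418% of all genes called lower. The slide block called 3 lower, beside 7.76% of all genes: Hist1h1c at -0.38 ± 0.08 (log2 fold change ± SE), Hist1h2an at -0.30 ± 0.06 and Hist1h2ab at -0.24 ± 0.06. The median histone difference was -0.12 in that fit and on slide 1 alone, and no gene was called on slide 1 alone.

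Anti-CD86 alone lowered 1 histone gene past the threshold, Hist1h2an, beside 1.58% of all genes called lower, and 29 of the 38 were lower at an unadjusted p under 0.05. When slide entered as a block, 32 of 38 were called lower, beside 20.3% of all genes, and the median difference was -0.43. All 6 H4 genes, 11 of 13 H2A genes, 6 of 8 H2B genes, 5 of 6 H3 genes and 4 of 5 H1 genes were among the 32. These counts rest on the brightest probe of each gene, and dimmer probes of Hist1h4d and Hist3h2a were not called. On slide 1 alone the median was -0.45 and none passed, with 32 lower at an unadjusted p under 0.05 and 0% of all genes called lower.

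Anti-CD86+Pam2CSK4 lowered 8 of 38 genes, beside 10.3% of all genes. They were Hist1h2bc, Hist1h2ag, Hist1h2an, Hist1h1c, Hist3h2ba, Hist1h2ab, Hist1h3a and Hist1h3h. No H4 gene was among them; the median over the 6 H4 genes was -0.41, close to that of the 6 H3 genes (-0.44). The slide block called 25 lower, beside 28% of all genes, and on slide 1 alone 14 were, beside 15.2%.

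Anti-CD40 lowered 11 of 38 genes, beside 14.6% of all genes: Hist1h2an, Hist1h2ag, Hist1h1a, Hist2h2be, Hist1h2ab, Hist1h1c, Hist1h2bc, Hist1h3g, Hist1h3h, Hist1h3a and Hist2h2bb. The slide block called 33, beside 29.2%, and on slide 1 alone 18 were, beside 16.8%. Without the replicate 2 array that stood apart, 1 gene was called; without replicate 1, 18 were. The share of all genes called was not counted without these arrays. Of the 8 genes called with anti-CD86+Pam2CSK4, 7 were called with anti-CD40 too, which is 7 of the 11 called there. Both comparisons use the same unstimulated arrays, and the same overlap over all genes was not counted.

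Anti-CD40+Pam2CSK4 lowered Hist1h2bc and Hist1h2ae alone, beside 12.9% of all genes called lower. The slide block, which leaves the fold changes of this slide 1 comparison as they were, called 26 lower, beside 31.2%, and 1 higher, beside 21.7%. The 1 higher was Hist2h3c1, whose probe was saturated on all arrays, so no size is given. On slide 1 alone 18 were lower, beside 28.2%. Leaving out either unstimulated array left no call with anti-CD86, anti-CD86+Pam2CSK4 or anti-CD40, and with anti-CD40+Pam2CSK4 1 call without replicate 1 and none without replicate 2.

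**Figure D3:**
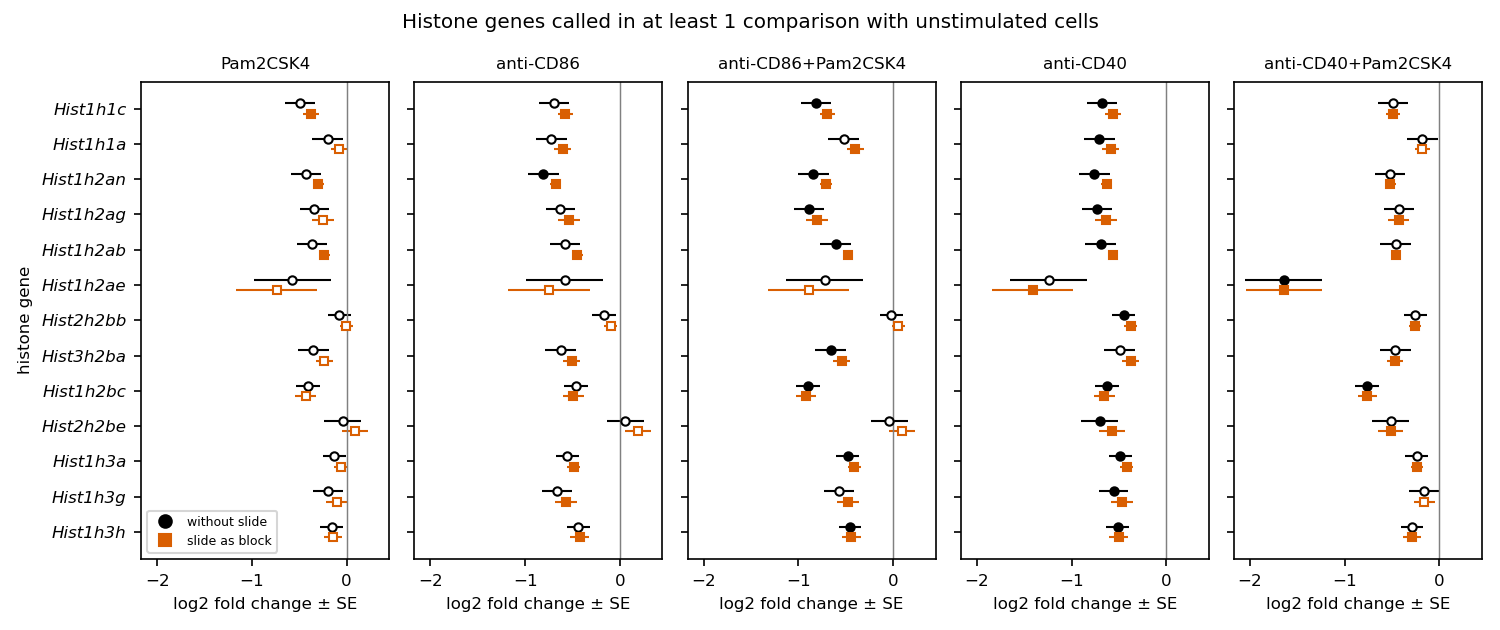
Log2 fold change ± SE against unstimulated cells for the 13 histone genes called in at least 1 comparison, without slide (black circles) and with slide as a block (orange squares); filled symbols have an adjusted p under 0.05. The bars are mostly shorter with the block (Hist1h2an with anti-CD86, 0.16 and 0.06), and Hist2h2be lies near 0 in the 3 comparisons without anti-CD40. Hist1h2ae was not well above background on either anti-CD40 array and on 1 of the 2 anti-CD40+Pam2CSK4 arrays, so its points there are not measured sizes.

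Among linker histones, Hist1h1c, a somatic H1 subtype found in most tissues, read 3.01 and 2.99 (log2 level) on the unstimulated arrays and 2.63 and 2.38 with Pam2CSK4. It read 2.41 and 2.20 with anti-CD86, 2.24 and 2.13 with anti-CD86+Pam2CSK4, 2.50 and 2.14 with anti-CD40, and 2.58 and 2.43 with anti-CD40+Pam2CSK4. Every stimulated array was below both unstimulated ones. The fold change was -0.81 ± 0.16 with anti-CD86+Pam2CSK4 (adjusted p = 0.0237) and -0.68 ± 0.16 with anti-CD40 (adjusted p = 0.0270). With the slide block it was called in all 5 groups, from -0.69 ± 0.08 with anti-CD86+Pam2CSK4 to -0.38 ± 0.08 with Pam2CSK4.

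Hist1h1a, another S phase H1 subtype, fell with anti-CD40 by 0.71 ± 0.16 on the log2 scale (adjusted p = 0.0266). Its levels there were 0.66 and 0.24, against 1.18 and 1.14 unstimulated, and they were 1.05 and 0.92 in cells given anti-CD40+Pam2CSK4. The difference between these anti-CD40 groups, 0.53 ± 0.16, passed only with slide as a block (0.41 ± 0.09, adjusted p = 0.0285; 0.152 without it). With anti-CD86 Hist1h1a was at -0.72 ± 0.16 and missed the threshold (limma, adjusted p = 0.0622). Hist1h1e, the brightest H1 probe, did not pass in any comparison without the block, at -0.43 ± 0.19 with anti-CD86 and 0.06 ± 0.19 with anti-CD40+Pam2CSK4. Hist1h1d was at -0.60 ± 0.18 and -0.59 ± 0.18 with anti-CD86 and anti-CD40 (adjusted p = 0.108 and 0.0578). It was called in all 4 antibody groups with the block.

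The H2A genes showed the widest range of measured levels, with means over the arrays from -3.28 to 7.23 (log2). Hist1h2an read 6.59 and 6.60 (log2 level) on the unstimulated arrays, 6.29 and 6.04 with Pam2CSK4, 5.89 and 5.68 with anti-CD86 and 5.89 and 5.62 with anti-CD86+Pam2CSK4. With anti-CD40 it read 5.99 and 5.69, and with anti-CD40+Pam2CSK4 6.01 and 6.13. Its groups did not overlap with unstimulated cells. The fold changes were -0.81 ± 0.16, -0.84 ± 0.16 and -0.76 ± 0.16 with anti-CD86, anti-CD86+Pam2CSK4 and anti-CD40 (adjusted p = 0.0493, 0.0227 and 0.0201). With the block it was called in all 5 comparisons, and its probe shared 30 bases with that of Hist1h2ah.

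Hist1h2ag, whose probe spans the stem-loop shown above, read 1.11 and 1.19 unstimulated, 0.78 and 0.84 with Pam2CSK4, 0.62 and 0.42 with anti-CD86 and 0.34 and 0.19 with anti-CD86+Pam2CSK4. It read 0.63 and 0.21 with anti-CD40 and 0.68 and 0.76 with anti-CD40+Pam2CSK4. The combination of anti-CD86 and Pam2CSK4 held the lowest pair mean. Its fold change was -0.89 ± 0.16 there (adjusted p = 0.0184) and -0.73 ± 0.16 with anti-CD40 (adjusted p = 0.0207). Hist1h2ab, with part of the stem-loop at its probe's end, fell in the same groups, by 0.61 ± 0.16 and 0.69 ± 0.16 (log2, adjusted p = 0.0499 and 0.0263). With anti-CD86 alone Hist1h2ab was at -0.58 ± 0.16 and missed the threshold (limma, adjusted p = 0.0927).

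The bright probes Hist1h2aa, Hist1h2af and Hist1h2ah, which share 44 bases, had similar values: with anti-CD86 they lay at -0.73 ± 0.21, -0.71 ± 0.21 and -0.71 ± 0.22. None of the 3 passed without the slide block in any comparison, and all 3 were called lower with it in the 4 antibody groups. A dimmer probe of Hist1h2af, annotated to 5 transcripts, read -0.59 ± 0.19 with anti-CD86 and -0.61 ± 0.19 with anti-CD40, and did not pass either (adjusted p = 0.127 and 0.0664). Saturation on 1 or 2 arrays compresses differences of these probes.

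Hist1h2ae was the dimmest member tested. Its unstimulated levels were -2.29 and -2.69, and with anti-CD40+Pam2CSK4 they were -3.47 and -4.79, of which 1 array was well above background. The fitted difference of -1.64 ± 0.41 (adjusted p = 0.0273) includes the other array, whose reading was not well above background, so its size is uncertain. With anti-CD40 neither array was well above background, so only a bound can be given: unstimulated cells were at least 2.22-fold higher, and the fit did not pass (adjusted p = 0.0720). Hist2h2aa1 and Hist3h2a differed in sign or by probe. Hist2h2aa1 lay above 0 with Pam2CSK4 (0.20 ± 0.20), anti-CD86+Pam2CSK4 (0.28 ± 0.20) and anti-CD40+Pam2CSK4 (0.10 ± 0.20) and passed in no comparison. Hist3h2a was at -0.26 ± 0.12 with anti-CD40 by its bright probe, while its second probe was called at -0.64 ± 0.13 (adjusted p = 0.0164), so the probes of this gene disagree.

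**Figure D4:**
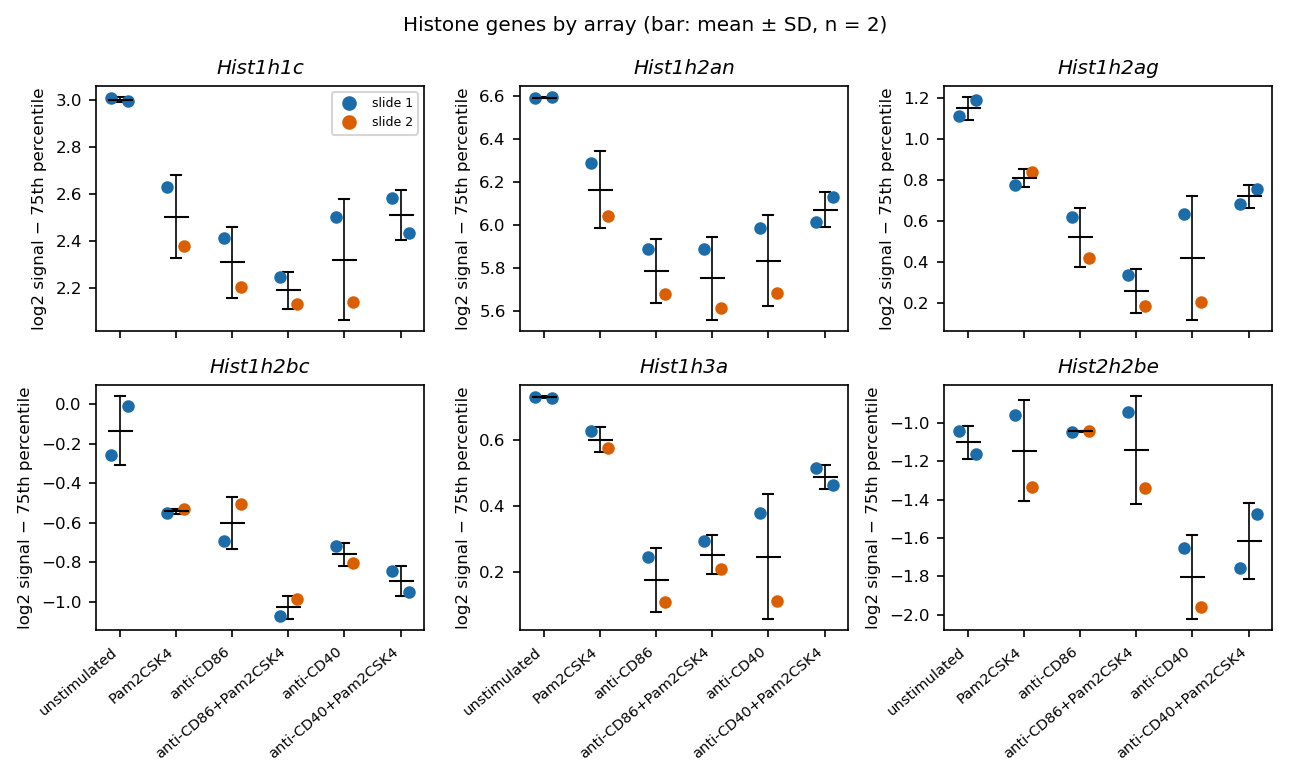
Log2 signal minus the array's 75th percentile for 6 histone genes in each group; points are arrays coloured by slide, bars are mean ± SD (n = 2). Both anti-CD40 groups of Hist2h2be lie at -1.48 or lower while all other groups lie at -1.34 or higher, and Hist1h2bc is lowest with anti-CD86+Pam2CSK4 (-1.07 and -0.99).

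Among H2B genes, Hist1h2bc read -0.26 and -0.01 unstimulated and -0.55 and -0.53 with Pam2CSK4. It read -0.69 and -0.51 with anti-CD86, -1.07 and -0.99 with anti-CD86+Pam2CSK4, -0.72 and -0.80 with anti-CD40, and -0.84 and -0.95 with anti-CD40+Pam2CSK4. Without the slide block it was the only member called in both combinations, at -0.89 ± 0.13 with anti-CD86+Pam2CSK4 (adjusted p = 0.0111) and -0.76 ± 0.13 with anti-CD40+Pam2CSK4 (adjusted p = 0.00549). With anti-CD40 alone it was at -0.63 ± 0.13 (adjusted p = 0.0171). Its probe shared no run over 8 bases with another histone probe.

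Hist2h2be differed by antibody. It read -1.04 and -1.16 (log2 level) unstimulated, -0.96 and -1.33 with Pam2CSK4, -1.04 and -1.04 with anti-CD86 and -0.94 and -1.34 with anti-CD86+Pam2CSK4. With anti-CD40 it read -1.65 and -1.96, and with anti-CD40+Pam2CSK4 -1.76 and -1.48. The 4 arrays with anti-CD40 were thus the 4 lowest. Against unstimulated cells it fell with anti-CD40 by 0.70 ± 0.20 on the log2 scale (adjusted p = 0.0453), and with anti-CD86 it was at 0.06 ± 0.20. The direct difference between the antibodies, a comparison added after the values were seen, was -0.76 ± 0.20 (anti-CD40 minus anti-CD86, adjusted p = 0.0475; 1 of 38 histone genes, beside 5.34% of all genes called lower). No histone gene was called higher, beside 4.58%. In the fit with the slide block it was -0.76 ± 0.13 (adjusted p = 0.00540), and Hist2h2bb, of the same cluster, was called too, at -0.28 ± 0.06, beside 20.6% of all genes. On slide 1 alone no histone gene was called lower, beside 4.54%. Between the combinations, Hist2h2be differed by -0.48 ± 0.20 (anti-CD40+Pam2CSK4 minus anti-CD86+Pam2CSK4) and did not pass. No histone gene did there, beside 4.64% of all genes called lower and 8.45% higher. With the block it differed by -0.61 ± 0.14 (adjusted p = 0.0162), 1 of 2 genes called lower, beside 16.1%, while 6 were called higher, beside 22%.

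Hist3h2ba fell with anti-CD86+Pam2CSK4 by 0.66 ± 0.16 on the log2 scale (adjusted p = 0.0420). Its levels there were -0.26 and -0.55, against 0.18 and 0.33 unstimulated. With anti-CD86 alone it was at -0.62 ± 0.16 and missed the threshold (limma, adjusted p = 0.0822). The brightest H2B probes, each listed with or sharing sequence with other transcripts, missed the threshold without the block: Hist1h2bm was at -0.68 ± 0.22 with anti-CD40, Hist1h2bk at -0.70 ± 0.20 and Hist3h2bb at -0.63 ± 0.19 (adjusted p = 0.0693, 0.0530 and 0.0578). A dimmer Hist1h2bk probe passed there at -0.49 ± 0.14 (adjusted p = 0.0495). All 8 H2B genes were called lower with the block with anti-CD40 and with anti-CD40+Pam2CSK4, beside 29.2% and 31.2% of all genes.

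Of the H3 genes, Hist1h3a, again a stem-loop probe, read 0.73 and 0.73 unstimulated, 0.63 and 0.57 with Pam2CSK4, 0.24 and 0.11 with anti-CD86 and 0.29 and 0.21 with anti-CD86+Pam2CSK4. It read 0.38 and 0.11 with anti-CD40 and 0.51 and 0.46 with anti-CD40+Pam2CSK4. It fell with anti-CD86+Pam2CSK4 and with anti-CD40 by 0.48 ± 0.12 in both (adjusted p = 0.0451 and 0.0334). With anti-CD86 alone it was at -0.55 ± 0.12 and missed the threshold (adjusted p = 0.0588). Hist1h3h and Hist1h3g, the other stem-loop probes, fell with anti-CD40 by 0.51 ± 0.12 and 0.56 ± 0.16. With anti-CD86 they were at -0.44 ± 0.12 and -0.66 ± 0.16 and missed the threshold (limma, adjusted p = 0.0894 and 0.0687). Hist1h3d, a bright coding probe, was at -0.57 ± 0.24 with anti-CD86 and -0.03 ± 0.24 with anti-CD40+Pam2CSK4 and did not pass.

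In all 5 comparisons every one of the 6 H4 genes lay below 0, between -0.70 and -0.14, and none passed without the slide block. Hist1h4f read 5.52 and 5.49 (log2 level) unstimulated, 5.18 and 4.91 with anti-CD86 and 5.24 and 4.94 with anti-CD40, and was at -0.46 ± 0.16 and -0.41 ± 0.16. Hist1h4d and Hist1h4m were at -0.58 ± 0.22 and -0.52 ± 0.20 with anti-CD40. With the block all 6 were called lower with anti-CD86 and with anti-CD40, beside 20.3% and 29.2% of all genes. By these brightest probes the 6 genes lay between -0.45 and -0.28 with anti-CD40. A dimmer Hist1h4d probe, listed with 1 transcript, was not called with anti-CD86 in that fit (-0.20 ± 0.07, limma, adjusted p = 0.0966). With anti-CD40 it was called there (-0.35 ± 0.07, adjusted p = 0.0120). The probes of Hist1h4f and Hist1h4d share 50 bases. The array's symbol Hist1h4m is kept, although its transcript is filed under H4c18 in current RefSeq.

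Genes were also set side by side by the kind of probe that reads them. In the order Pam2CSK4, anti-CD86, anti-CD86+Pam2CSK4, anti-CD40 and anti-CD40+Pam2CSK4 against unstimulated cells, the 6 genes read by a probe with all or part of the stem-loop had medians of -0.27, -0.58, -0.59, -0.62 and -0.36 (log2), and 0, 0, 4, 5 and 1 of them were called lower. The shared kind held 16 genes, with a run of at least 30 bases in another histone probe or several listed transcripts. Their medians were -0.32, -0.62, -0.50, -0.62 and -0.25, with 0, 1, 1, 2 and 0 called. The other 16 had -0.21, -0.53, -0.37, -0.50 and -0.16, with 0, 0, 3, 4 and 1 called. Not all of these were free of similar sequence: the Hist1h2ai probe matched that of Hist1h2ak at 55 of 60 positions. Among all genes 0.0418%, 1.58%, 10.3%, 14.6% and 12.9% were called lower. The slide block called 1, 5, 5, 6 and 5 of the stem-loop kind, 1, 14, 13, 15 and 14 of the shared kind and 1, 13, 7, 12 and 7 of the others. It called 7.76%, 20.3%, 28%, 29.2% and 31.2% of all genes lower. In each kind at least 15 of 16, or 6 of 6, lay below 0 with anti-CD86 and with anti-CD40. These are descriptions, since genes of 1 kind share sequence.

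The study paired each antibody with Pam2CSK4, so the combinations were compared with their parts. Against Pam2CSK4 alone, anti-CD86+Pam2CSK4 had a median histone difference of -0.21, lower in 34 of 38 genes, and none was called (7 lower and none higher at an unadjusted p under 0.05; 0.0179% of all genes called lower and 0.0119% higher). These groups are spread over the slides alike, so the differences are the same with slide as a block, where 12 were called lower, beside 7.47% of all genes. Of the 12, 9 were H2A genes, among them Hist1h2ag at -0.55 ± 0.11 and Hist1h2an at -0.41 ± 0.06, and the rest were Hist1h2bc, Hist1h3a and Hist1h3c. On slide 1 the median of this difference was -0.21 and on slide 2 it was -0.25. Over all genes it was -0.05 on each slide, with 58.4% and 59.9% of genes below 0.

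Against anti-CD86 alone, the combination gave a median of 0.08 and no call with or without the block (1 lower, none higher at an unadjusted p under 0.05 without it). Of all genes, 0.0239% were called lower and 0.173% higher, and 4.47% and 2.67% with the block. The lowest difference among the 38 was that of Hist1h2bc, at -0.43 ± 0.13. Against Pam2CSK4, anti-CD40+Pam2CSK4 gave a median of 0.01 without the block and -0.15 with it, and 0 and 5 genes called lower, beside 3.99% and 18.3% of all genes. The 5 were Hist2h2be at -0.61 ± 0.14, Hist3h2bb, Hist2h2bb, Hist1h2ab and Hist1h2an. Without the block none was called higher, beside 6.52%, and 3 were lower and 1 higher at an unadjusted p under 0.05.

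Against anti-CD40 alone, the combination lay higher in 36 of 38 genes, by a median of 0.31, and both its arrays read above both anti-CD40 arrays for 31 genes, beside 36% of all genes. None passed (3 higher at an unadjusted p under 0.05), beside 1.59% of all genes called lower and 0.985% higher. With slide as a block the median was 0.18, and Hist1h1a and Hist2h2ac were called higher, beside 8.94% of all genes. On slide 1 alone the median was 0.13. The median over all genes is not given for this comparison. The replicate 2 array of anti-CD40, which stood apart, enters this comparison without a counterpart on slide 2.

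The interaction asks whether a combination departed from the sum of its parts on the log2 scale. For anti-CD86 and Pam2CSK4 its median was 0.34, above 0 in 35 of 38 genes, with no call and none at an unadjusted p under 0.05 (0% of all genes called below 0 and 0.00597% above). For anti-CD40 and Pam2CSK4 it was 0.59, above 0 in 37 of 38, with no call, 14 above 0 at an unadjusted p under 0.05, and 0.495% of all genes called below 0 and 0.346% above. When slide was a block the medians were 0.19 and 0.30, and 0 and 2 genes were called, beside 0.0895% and 5.22% above 0: Hist2h2ac at 0.46 ± 0.10 and Hist1h2an at 0.41 ± 0.09 (adjusted p = 0.0421 and 0.0454). A positive value here means that the combination lay less far below unstimulated cells than its parts added together. The median interaction over all genes is not given, and all genes too lay below unstimulated cells by their medians. These interaction medians and the counts above 0 are therefore not read as a result about the histone genes.

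Genes around the histone supply were read from lists. The shares of all genes called, given above for each comparison, are repeated for reading these counts: in the order Pam2CSK4, anti-CD86, anti-CD86+Pam2CSK4, anti-CD40 and anti-CD40+Pam2CSK4, 0.0418%, 1.58%, 10.3%, 14.6% and 12.9% were called lower. With slide as a block 7.76%, 20.3%, 28%, 29.2% and 31.2% were. Called higher were 0.107%, 0.454%, 1.78%, 4.66% and 7.36%, and with the block 4.08%, 10.4%, 10.6%, 12.9% and 21.7%. On slide 1 alone 0%, 0%, 15.2%, 16.8% and 28.2% were called lower, and the share called higher is not given. Of 17 genes for histone mRNA processing and decay, none was called with Pam2CSK4 or anti-CD86 (limma), 1 fell with anti-CD86+Pam2CSK4, 2 fell with anti-CD40, and 3 fell and 2 rose with anti-CD40+Pam2CSK4. With the block 1, 2, 4, 2 and 3 were lower and 0, 1, 0, 2 and 6 higher in the same order. The median with anti-CD40+Pam2CSK4 was 0.11, against -0.08 over all genes. Slbp, which encodes the protein that binds the stem-loop, read 4.90 and 4.89 (log2 level) unstimulated, 4.65 and 4.42 with Pam2CSK4, 4.83 and 4.77 with anti-CD86 and 4.61 and 4.38 with anti-CD86+Pam2CSK4. It read 4.50 and 4.23 with anti-CD40 and 4.40 and 4.38 with anti-CD40+Pam2CSK4. It fell in both anti-CD40 groups, by 0.53 ± 0.14 and 0.50 ± 0.14 (log2; adjusted p = 0.0395 and 0.0420), while with anti-CD86 it was at -0.09 ± 0.14.

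Npat, a coactivator of histone gene transcription, differed in 1 group. Its levels were 1.81 and 1.82 unstimulated and 1.06 and 1.14 with anti-CD40+Pam2CSK4, with all other arrays between 1.62 and 2.09. It fell there by 0.71 ± 0.10 (adjusted p = 0.00270). With anti-CD40 alone it was at 0.06 ± 0.10, and with Pam2CSK4 at -0.18 ± 0.10. Lsm10, a subunit of the U7 particle that cuts histone pre-mRNA, fell by 0.52 ± 0.12, 0.57 ± 0.12 and 0.64 ± 0.12 with anti-CD86+Pam2CSK4, anti-CD40 and anti-CD40+Pam2CSK4 (adjusted p = 0.0358, 0.0196 and 0.00957). Cstf3, a cleavage factor for polyadenylated messages, rose by 1.05 ± 0.20 with anti-CD40+Pam2CSK4 (adjusted p = 0.00972), and Upf1, which takes part in decay, rose there by 0.54 ± 0.10 (adjusted p = 0.0104).

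**Figure D5:**
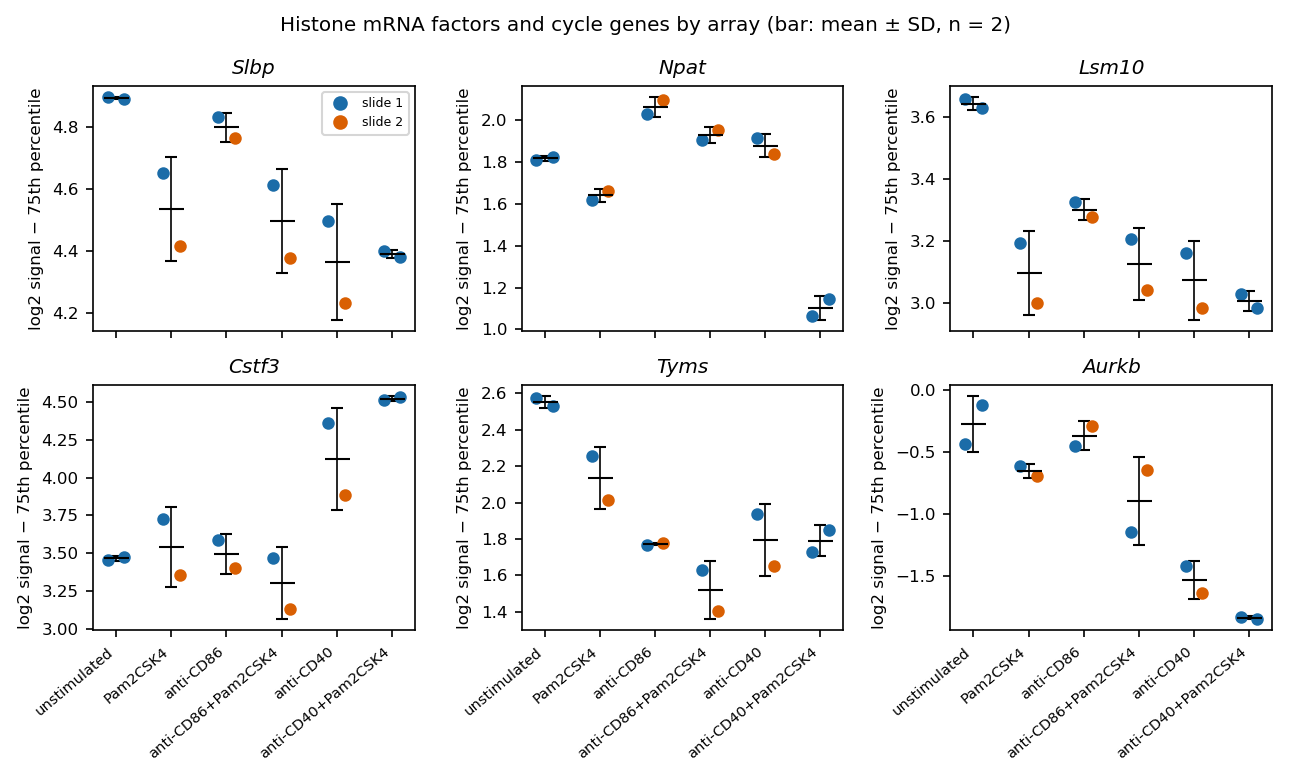
Log2 signal minus the array's 75th percentile for 4 histone mRNA factors, Tyms and Aurkb in each group; points are arrays coloured by slide, bars are mean ± SD (n = 2). Npat is low only with anti-CD40+Pam2CSK4 (1.06 and 1.14), and Slbp stays near its unstimulated level with anti-CD86 (4.83 and 4.77).

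The replacement and variant histones, which are made outside S phase as well, had 9 of 11 genes tested, and 1 fell with anti-CD86+Pam2CSK4 and 1 with anti-CD40. These were H1f0, a linker variant of resting cells (-0.88 ± 0.21, adjusted p = 0.0393), and H2afy, a macroH2A gene (-0.41 ± 0.11, adjusted p = 0.0427). H1f0 read -0.56 and -0.98 with anti-CD86, where it was not called, and -0.66 and -0.96 with anti-CD86+Pam2CSK4. The median of the 9 genes was -0.28 with anti-CD86, against -0.58 for the replication-dependent genes, and -0.45 with anti-CD40. The 9 include H3f3a and H3f3b, which were saturated on both unstimulated and both anti-CD86 arrays. Saturation compresses their differences, so the size of the gap between these medians is uncertain. The slide block called 0, 4, 5, 6 and 5 lower in the order above, and 2 higher with anti-CD40+Pam2CSK4. Those 2 were H3f3a and H3f3b, which both encode H3.3; their probes were saturated on 11 and 12 of the 12 arrays, so no fold change is given.

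Of 15 chaperone and chromatin assembly genes, the counts lower and higher were 0 and 0 with Pam2CSK4, 0 and 1 with anti-CD86, 2 and 1 with anti-CD86+Pam2CSK4, 2 and 0 with anti-CD40 and 1 and 3 with anti-CD40+Pam2CSK4. With the block they were 1 and 0, 2 and 1, 6 and 2, 5 and 2, and 4 and 4. Hira, the chaperone for replacement H3.3, rose by 0.98 ± 0.17, 1.02 ± 0.17 and 0.72 ± 0.17 with anti-CD86, anti-CD86+Pam2CSK4 and anti-CD40+Pam2CSK4 (adjusted p = 0.0374, 0.0160 and 0.0221). Chaf1b, a subunit of the assembly factor that works at the replication fork, fell with anti-CD40 by 0.86 ± 0.23 (adjusted p = 0.0407). Its levels were 2.37 and 2.28 unstimulated, 1.61 and 1.30 with anti-CD86, where it was not called, and 1.70 and 1.21 with anti-CD40. Ipo4, an importin that carries histones, rose with anti-CD40+Pam2CSK4 by 0.84 ± 0.18 (adjusted p = 0.0177).

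Of 20 genes for S phase entry and DNA synthesis, 0, 1, 3, 3 and 2 fell in the order Pam2CSK4, anti-CD86, anti-CD86+Pam2CSK4, anti-CD40 and anti-CD40+Pam2CSK4, and none rose. The slide block called 2, 7, 10, 9 and 7 of them lower and 1, 2, 2, 1 and 1 higher. On slide 1 alone 0, 0, 9, 4 and 7 were lower and 0, 0, 2, 1 and 1 higher. Tyms, thymidylate synthase, fell in the 4 antibody groups, by 0.78 ± 0.14, 1.03 ± 0.14, 0.76 ± 0.14 and 0.76 ± 0.14 (adjusted p = 0.0442, 0.0111, 0.0146 and 0.00975). Ccne1, cyclin E1, fell with anti-CD40 by 0.77 ± 0.16, and Rrm2, a ribonucleotide reductase subunit, with anti-CD86+Pam2CSK4 by 0.76 ± 0.16. Of 11 genes for mitosis, 0, 0, 5, 7 and 4 fell in that order and none rose. For these the slide block gave 2, 6, 7, 8 and 7 lower and slide 1 alone 0, 0, 6, 7 and 7, with none higher in either. Aurkb, a mitotic kinase, fell by 1.25 ± 0.19 and 1.55 ± 0.19 with anti-CD40 and anti-CD40+Pam2CSK4 (adjusted p = 0.00669 and 0.00157), and with anti-CD86 it was at -0.09 ± 0.19. Ccna2, cyclin A2, and Aurka fell with anti-CD86+Pam2CSK4, by 0.97 ± 0.16 and 0.78 ± 0.14.

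The upstream sequence of the histone genes was looked up in RefSeq's promoter table (assembly GRCm38.p6, 250 bases before to 50 after each start). Of the 42 genes, 41 matched by transcript and 36 had an entry, with 37 promoters. ATTTGCAT, the octamer bound by OCT factors, was searched on both strands. It was in 5 of 7 H2B promoters, 7 of 14 H2A promoters, and 0 of 6 for H1, 0 of 5 for H3 and 0 of 5 for H4, against 1.74% of all 32851 promoters. Divergent neighbours such as Hist1h2bk and Hist1h2ah, or Hist1h2ba and Hist1h2aa, have overlapping windows, so 1 copy can count for both. CCAAT was in 34 of 37 histone promoters and 37.4% of all, and TATAAA in 23 of 37 and 13.6% of all. Each was counted on either strand and anywhere in the window, so a match has no set direction or distance from the start. The last 110 bases before the start of Hist1h2bm (chr13:21721934-21722043, plus strand) and Hist1h2bk (chr13:22035711-22035820, plus strand) are shown as examples of the H2B arrangement, with the octamer and CCAAT or its complement in capitals.

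Hist1h2bm: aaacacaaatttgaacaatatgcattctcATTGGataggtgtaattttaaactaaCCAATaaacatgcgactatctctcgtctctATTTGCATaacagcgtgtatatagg
Hist1h2bk: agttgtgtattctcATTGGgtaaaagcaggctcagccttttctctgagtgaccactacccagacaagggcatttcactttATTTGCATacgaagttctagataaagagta

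A match of letters does not show that a factor binds there.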

How the data were processed

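Total RNA of RB cells was labelled with Cy3 from oligo(dT)-primed cDNA and hybridised to 12 one-colour Agilent mouse arrays. The authors deposited 1 scanner file per array with spot intensity, background-subtracted and detrended by Feature Extraction (array annotation mm9). They also deposited a table of log2 values, which was found to be log2 of the same processed signal minus 1 constant per array; it was used as an alternative. Here log2 processed signal minus each array's 75th percentile was used. Control and outlier spots were left out, spots of a probe were averaged, and a probe was tested where some group had it well above background on its 2 arrays (31599 probes). Groups follow the sample labels. limma 3.58.1 (R 4.3.3; lmFit and eBayes, 1 coefficient per group, all 12 arrays) gave fold changes and Benjamini-Hochberg adjusted p over all probes tested; the call was at 0.05. The script was tested on simulated data. A gene was read by its brightest probe, noncoding RNA probes excluded. Genes named with values were, by rule, the 3 brightest tested of each class, up to 6 called genes with the lowest and 6 with the highest fold change in a comparison, Slbp, Npat and up to 3 called genes of each list; the other called genes, second probes, Hist1h1t, Hist2h2aa1, Hist3h2a, H3f3a, H3f3b and Upf1 were named after their values were seen. Alternatives were slide or replicate number as a block, slide 1 alone, other normalizations, normexp (offset 50), no filter, the second probe of a gene, the methods' one-way ANOVA and leaving out each array. The members and gene lists were chosen with earlier results of these data known. The number of arrays, 2 in each group, limits the precision. A red cell marker list is not reported here.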

Additional observations from a re-analysis of the deposited data

Results flagged for a closer look

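Hist2h2be differed between the antibodies: its signal with anti-CD40 was below that with anti-CD86 by -0.76 ± 0.20 (log2, adjusted p = 0.0475 by limma), a comparison added after the values were seen. Both anti-CD40 arrays (-1.65 and -1.96) lay below both anti-CD86 arrays (-1.04 and -1.04). Under quantile normalization, median normalization, normexp background correction, no filter and slide 1 alone no histone gene passed this comparison. Leaving out 1 array at a time, it passed in 5 of 12 cases and not without either unstimulated array, either anti-CD86 array, replicate 2 of anti-CD40 or either anti-CD40+Pam2CSK4 array.

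Hist1h1t, the testis-specific H1 gene, was not tested because its probe stood above background on 1 array. On the replicate 2 array of anti-CD40 it read -0.71 (log2), while the other 11 arrays lay between -6.14 and -4.93. That array also had the largest share of probes well above background, and the part of this in the reading was not tested. No group has enough arrays for a test of outlying samples.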

How the results depend on the processing

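The medians of the histone genes against unstimulated cells stayed below 0 in all 5 comparisons under all settings; the counts called did not stay put. In the order of any difference, then Pam2CSK4, anti-CD86, anti-CD86+Pam2CSK4, anti-CD40 and anti-CD40+Pam2CSK4 against unstimulated cells, the counts were 5, 0, 1, 8, 11 and 2. They were 33, 3, 32, 25, 33 and 27 with slide as a block, 10, 0, 0, 14, 18 and 18 on slide 1 alone (added after seeing the data), 0, 0, 0, 0, 1 and 1 with median normalization, 7, 0, 5, 9, 17 and 3 with quantile normalization, 7, 0, 4, 12, 22 and 3 with normexp, and 0, 0, 0, 0, 0 and 1 with no filter, where 41 genes were tested. The authors' values gave 0 with anti-CD86, and the methods' one-way ANOVA gave 14 for any difference before adjustment and 4 after it. With slide as a block, the 33 for any difference and the 27 with anti-CD40+Pam2CSK4 include the saturated Hist2h3c1. The slide block also gave 12 and 5 for the combinations of anti-CD86 and anti-CD40 against Pam2CSK4, 2 for anti-CD40+Pam2CSK4 against anti-CD40 and 2 for the anti-CD40 interaction. Median normalization shifted the median of all genes to between -0.72 and -0.19. It only subtracts a different constant from each array, which moves every gene on that array alike. The gap between the histone and all-gene medians (-0.44 with anti-CD40) therefore cannot change, and it is no check of the result. Leaving out 1 array gave 0 to 7 for any difference, 0 to 5, 0 to 10, 0 to 18 and 0 to 5 for anti-CD86, anti-CD86+Pam2CSK4, anti-CD40 and anti-CD40+Pam2CSK4, 0 to 1 for anti-CD40+Pam2CSK4 against Pam2CSK4 and for both comparisons between the antibodies, and 0 in each other comparison. A lone array is assumed to vary like the other groups. The share of all genes called was counted without slide, with slide as a block and on slide 1 alone. For the other settings it was not counted, so changes in their counts are not read as a result about the histone genes.

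With the replicate number as a block the counts were 17, 0, 19, 19, 30 and 6, and 1 each for anti-CD40+Pam2CSK4 against anti-CD40 and the anti-CD40 interaction. The share of all genes called was not counted with this block. The numbers were not taken as pairing: deviations of same-numbered arrays correlated above 0.1 in 6 of 15 pairs of groups (-0.11 to 0.67).

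No called value of a named gene turned its sign. Hist1h1e with Pam2CSK4, not called, went to 0.051 with the slide block, 0.056 on slide 1 alone and between -0.28 and 0.056 with 1 array left out, and with anti-CD40+Pam2CSK4 to -0.051 under median normalization. Hist1h3d with anti-CD40+Pam2CSK4 ranged from -0.094 to 0.033 with 1 array left out. The cause was not tested.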
